A study of Mus musculus with 18 samples.

Results

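Transcript levels in N2A cells, a mouse neuroblastoma line also called Neuro-2a, were compared between *Fmr1* siRNA A and Scramble siRNA A, 72 h after transfection. An siRNA is a duplex of short RNA strands through which the cell cuts the mRNA that pairs with it, and a Scramble siRNA serves as the control that shares the transfection but not the target. The comparison takes the 6 libraries that carry these labels, 3 for each siRNA, out of 18 in the study, and describes all 19003 genes with enough counts to be tested out of 55414 features in the count table. The other 12 libraries came from *Fmr1* siRNA B, Scramble siRNA B and siRNAs A and B against *Zfp598*, with 3 libraries each, and they are used here as side-by-side values and for a shared estimate of the spread. All cells were of the same unedited line, and the siRNA is the only difference between the groups that the labels give. Batches of culture or library preparation are not stated. The knockdown (KD) with each siRNA was made in triplicate. The edgeR p-values rest on the spread between libraries of the same siRNA, estimated over all 18 libraries.

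*Fmr1* encodes FMRP, the RNA-binding protein whose loss causes fragile X syndrome. FMRP binds many neuronal mRNAs, travels with polyribosomes and represses translation, and stalled ribosomes can lead to no-go decay of the mRNA that carries them. The KD asks which transcripts change in level once less *Fmr1* mRNA is present. Since the RNA came from bulk cultures, fewer cells of a kind and less RNA per cell cannot be told apart.

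Total counts ranged from 13213653 to 14005697 over the *Fmr1* siRNA A libraries and from 12151589 to 14692028 over the Scramble siRNA A libraries. No pair of libraries agreed within sampling noise, as chi-square divided by its degrees of freedom lay between 4.50 and 38.0, so none was counted as a copy of another. The most counted feature, which has no entry in the annotation used, took between 5.00% and 11.1% of the counts of a Scramble siRNA A library and between 5.40% and 7.93% of a *Fmr1* siRNA A library. A library outside the contrast stood apart: *Fmr1* siRNA B replicate 1 held transcripts of embryonic stem cell markers at a summed 67.5 CPM (counts scaled to a common library total), against 8.55 to 11.2 CPM over the *Fmr1* siRNA A libraries and 8.79 to 10.2 CPM over the Scramble siRNA A libraries. The counts of list members that differ between the siRNAs are therefore given with that library and, in brackets, without it.

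The target itself was lower in every *Fmr1* siRNA A library. *Fmr1* (GRCm39 chrX:67722124-67761578, plus strand) was counted at 15.7, 22 and 16.8 CPM with *Fmr1* siRNA A and at 59.3, 54.9 and 51.2 CPM with Scramble siRNA A. The groups did not overlap, and 32.9% of the Scramble siRNA A level was left. The log2 fold change was -1.60 (SE 0.12, edgeR quasi-likelihood adjusted p = 1.45e-08). A two-sided exact permutation test of 3 against 3 libraries gave p = 0.10, the smallest that this design allows. With *Fmr1* siRNA B the log2 fold change was -1.29, and the difference between the siRNAs was -0.31 (adjusted p = 0.22), so a difference in the KD between them was not shown.

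Among 12 genes of the FMRP family and its partners, 3 were higher (25%) and 2, *Fmr1* included, were lower (16.7%). Over all tested genes these shares were 9.35% and 12.7%. *Fxr1*, a paralog, was counted at 207, 225 and 221 CPM with *Fmr1* siRNA A against 262, 289 and 241 CPM with Scramble siRNA A (log2 fold change -0.28, SE 0.078, adjusted p = 0.0132). That call was lost without *Fmr1* siRNA A replicate 1 (adjusted p = 0.0772) or without Scramble siRNA A replicate 2 (adjusted p = 0.0771), and against Scramble siRNA B *Fxr1* was at 0.10. The paralog *Fxr2* had overlapping groups and a log2 fold change of 0.05 (adjusted p = 0.759). *Cyfip1*, which encodes an FMRP-binding protein that represses cap-dependent initiation, rose by 0.41 on the log2 scale (SE 0.070, adjusted p = 0.000182), from 105 to 108 CPM in the control to 138 to 144 CPM in the KD. *G3bp1* rose by 0.32 (SE 0.073) and *Caprin1* by 0.46 (SE 0.14), both of them encoding stress granule proteins. Neither passed relative to Scramble siRNA B, where *G3bp1* was at 0.12 (adjusted p = 0.249) and *Caprin1* at 0.08 (adjusted p = 0.706). The *Caprin1* call did not pass without *Fmr1* siRNA A replicate 2, Scramble siRNA A replicate 1 or Scramble siRNA A replicate 3 (adjusted p = 0.0822, 0.0946 and 0.0805).

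Over all tested genes, 1777 (9.35%) were higher and 2407 (12.7%) were lower with *Fmr1* siRNA A at an adjusted p under 0.05, and the median log2 fold change was 0.01. A change of more than 2-fold together with that p was met by 225 genes (1.18%) that were higher and 449 genes (2.36%) that were lower. The CPM values of the KD and control libraries did not overlap for 7194 genes (37.9%), which is the background for each statement on separate groups made here. Most of the calls were modest changes in well-counted genes. Of the 3419 genes with a mean of 1000 or more counts per library, 477 were higher (14%) and 756 were lower (22.1%), with median log2 fold changes of 0.40 and -0.48 and with 13 and 57 of them past 2-fold. Among the 8764 genes with 50 to 1000 counts, 1090 were higher and 1400 lower, 57 and 195 of them past 2-fold. The 6820 genes under 50 counts gave 210 and 251 calls, of which 155 and 197 were past 2-fold. The genes that passed were longer in exon sequence, with a median of 6223 bases for the higher and 6885 bases for the lower genes against 4622 bases over all tested genes, and 89.0% and 92.7% of them were protein coding against 69.1%. Their median counts of 476 and 526 per library stood beside 152 over all tested genes, so the part of length and depth in these shares was not tested.

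**Figure D1:**
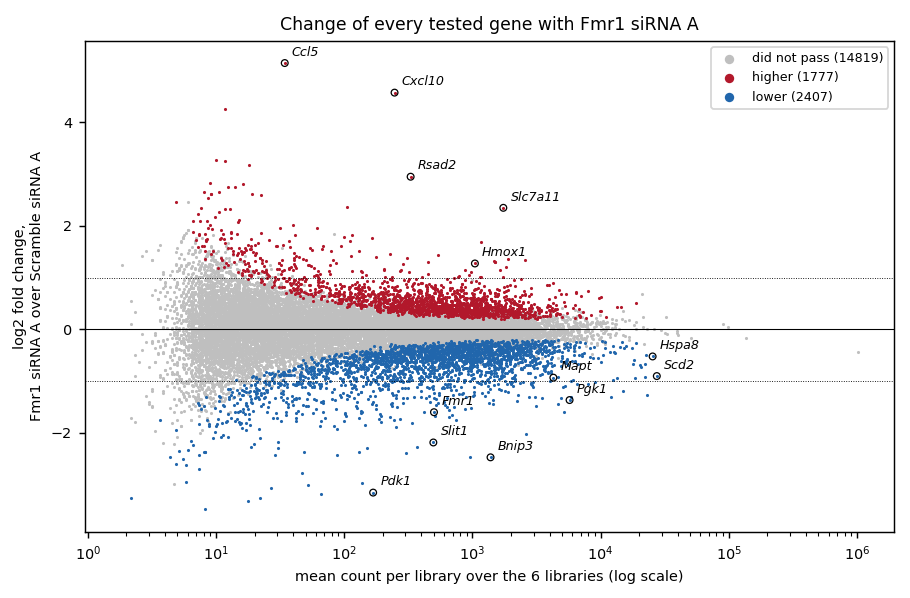
The log2 fold change of *Fmr1* siRNA A over Scramble siRNA A (vertical axis) is plotted against the mean count per library over the 6 libraries (log axis), 1 point per tested gene, with the 1777 higher genes in red, the 2407 lower genes in blue, the others in grey and dotted lines at 2-fold. Named genes past 2-fold at high counts include *Slc7a11* above and *Bnip3* and *Pgk1* below, and genes under 50 counts needed changes of about that size to pass.

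The choice of control moved many of these calls. Against Scramble siRNA B, which here shares the same 3 *Fmr1* siRNA A libraries, there were 2718 higher (14.3%) and 2876 lower (15.1%) genes. Of the 1777 genes higher against Scramble siRNA A, 957 were also higher, 45 were lower and 775 did not pass against Scramble siRNA B. Of the 2407 lower genes, 1355 were also lower, 83 were higher and 969 did not pass. The comparison of *Fmr1* siRNA B with Scramble siRNA B, which shares no library with the main one, gave 2099 higher (11%) and 1968 lower (10.4%) genes. Of the 1777 higher genes, 304 (17.1%) were higher and 202 (11.4%) lower with siRNA B, and of the 2407 lower genes, 517 (21.5%) were lower and 429 (17.8%) higher. The change itself differed between the siRNAs for 3892 genes (20.5% of those tested), and for 3497 without *Fmr1* siRNA B replicate 1, with 3344 genes in common. Each change was taken against its own Scramble siRNA, so differences between the siRNAs here and below hold those between the Scramble siRNAs too. Values for siRNA B or for the other control therefore stand beside most of the gene groups below.

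Promoter sequences are shown for 7 genes that changed strongly and whose window holds the letters of a binding site known for their pathway. They were chosen after their changes and the matches in their windows were seen, so that each of them holds a match is no finding. No promoter is shown for the antioxidant or the sterol element. Each is the 250 bases before the annotated start of the gene's Ensembl canonical transcript on its own strand, read from GRCm39 with the GENCODE M39 annotation. Capitals mark the letters of the motif searched on both strands. *Cxcl10*, *Isg15* and *Rsad2* (minus strands, chr5:92496749-92496998, chr4:156285304-156285553 and chr12:26506452-26506701) are shown with the core of the interferon-stimulated response element, GAAANNGAA. *Nfkbia* (minus strand, chr12:55539433-55539682) is shown with the NF-kB site GGGANTTTC. *Slc7a11* (minus strand, chr3:50398064-50398313) is shown with the ATF4-C/EBP composite site TGATGNAA, and its window holds 0 matches of the antioxidant response element described below. *Pgk1* (plus strand, chrX:105230456-105230705) and *Bnip3* (minus strand, chr7:138511254-138511503) are shown with the hypoxia response element core ACGTG.
Cxcl10: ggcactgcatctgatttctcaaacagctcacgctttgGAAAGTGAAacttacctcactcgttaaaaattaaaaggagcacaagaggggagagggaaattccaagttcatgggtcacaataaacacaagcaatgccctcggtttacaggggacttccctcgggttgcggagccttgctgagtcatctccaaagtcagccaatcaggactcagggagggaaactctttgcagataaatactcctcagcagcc
Isg15: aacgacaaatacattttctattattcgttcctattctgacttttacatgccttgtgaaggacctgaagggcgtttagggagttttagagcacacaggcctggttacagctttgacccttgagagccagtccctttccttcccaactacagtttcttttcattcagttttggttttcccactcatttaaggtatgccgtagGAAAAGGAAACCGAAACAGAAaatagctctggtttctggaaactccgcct
Rsad2: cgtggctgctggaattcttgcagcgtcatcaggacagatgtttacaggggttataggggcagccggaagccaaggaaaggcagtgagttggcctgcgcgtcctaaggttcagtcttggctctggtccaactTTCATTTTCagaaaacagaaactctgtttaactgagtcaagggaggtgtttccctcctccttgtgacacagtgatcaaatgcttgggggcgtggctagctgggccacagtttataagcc
Nfkbia: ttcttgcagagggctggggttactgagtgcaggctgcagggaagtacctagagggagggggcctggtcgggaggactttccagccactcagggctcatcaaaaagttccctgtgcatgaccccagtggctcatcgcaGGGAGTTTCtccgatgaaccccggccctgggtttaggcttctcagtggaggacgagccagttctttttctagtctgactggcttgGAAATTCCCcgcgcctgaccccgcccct
Slc7a11: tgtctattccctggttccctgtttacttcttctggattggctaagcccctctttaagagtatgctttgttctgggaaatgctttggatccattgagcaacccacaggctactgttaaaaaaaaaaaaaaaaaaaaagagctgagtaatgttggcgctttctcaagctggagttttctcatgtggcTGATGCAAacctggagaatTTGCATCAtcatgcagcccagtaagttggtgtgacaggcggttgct
Pgk1: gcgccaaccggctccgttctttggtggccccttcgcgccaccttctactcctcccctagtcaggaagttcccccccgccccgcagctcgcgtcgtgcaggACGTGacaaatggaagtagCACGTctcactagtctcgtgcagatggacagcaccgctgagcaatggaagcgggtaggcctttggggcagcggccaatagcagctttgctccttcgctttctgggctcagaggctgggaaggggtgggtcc
Bnip3: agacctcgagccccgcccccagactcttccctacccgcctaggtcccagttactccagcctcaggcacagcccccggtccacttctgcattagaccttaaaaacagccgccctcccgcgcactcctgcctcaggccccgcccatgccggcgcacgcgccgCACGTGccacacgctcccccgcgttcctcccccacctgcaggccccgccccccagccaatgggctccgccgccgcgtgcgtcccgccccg

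*Isg15* held 3 overlapping matches of its motif, *Nfkbia*, *Slc7a11*, *Pgk1* and *Bnip3* held 2 each, and the 2 of *Bnip3* are the same letters read on both strands. The interferon core was found in 7.55% of 21770 promoters of this length and in 25% of those of the interferon list (9 of 36). The NF-kB letters were in 1.08% of all promoters and in 4 of 18 of the NF-kB list (22.2%). The hypoxia core was in 17.0% of all promoters and in 10 of 29 of the glycolysis and hypoxia list (34.5%). The ATF4-C/EBP letters were in 3.39% of all and in 6 of 34 promoters of the ATF4 and CHOP targets (17.6%). An antioxidant response element, TGACNNNGC, was in 9.69% of all and in 4 of 24 promoters of the NRF2 list (16.7%), with 0 matches in *Slc7a11*, *Hmox1*, *Fth1*, *Gsr*, *Srxn1* and *Nqo1*, and a sterol regulatory element, TCACNCCAC, was in 1.12% of all and in 4 of 32 promoters of the sterol list (12.5%). These matches describe the letters of the windows and say nothing on which factor was bound.

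Genes of the interferon response had the largest rises in the data. Interferon-stimulated genes encode antiviral effectors and chemokines and are switched on through IRF and STAT factors after cells sense foreign RNA or interferon. Of 36 tested members, 13 were higher (36.1%, against 9.35% of all genes) and 5 were lower (13.9%, against 12.7%), with a median log2 fold change of 0.22. *Cxcl10*, a chemokine that draws T cells, was at 33.7, 32.2 and 33.6 CPM with *Fmr1* siRNA A and at 1.76, 1.32 and 1.13 CPM with Scramble siRNA A. The groups were far apart, and the fold change was 23.7 (log2 4.57, SE 0.22, adjusted p = 4.15e-11). *Rsad2*, which encodes the antiviral enzyme viperin, was at 47.0, 44.0 and 31.1 CPM against 3.97, 5.76 and 5.96 CPM. That is a rise of 7.70-fold (log2 2.95, SE 0.20, adjusted p = 6.25e-09). *Isg15*, a ubiquitin-like modifier, was at 14, 11.5 and 12.7 CPM against 3.53, 3.51 and 3.69 CPM. It rose by 1.83 on the log2 scale (SE 0.21, adjusted p = 1.85e-06), and the oligoadenylate synthetase-like genes *Oasl1* and *Oasl2* rose by 2.35 and 1.78. *Ccl5*, another chemokine, was at 5.42, 4.95 and 3.55 CPM against 0.0882, 0.265 and 0 CPM, the control values resting on a handful of counts. *Ifitm3*, which blocks viral entry and was not on the list, rose by 1.61 (SE 0.22).

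The response did not take in every member. *Tap1*, a peptide transporter of antigen presentation, was at 10.4, 10.2 and 10.8 CPM against 25.8, 19.7 and 20.1 CPM and fell by 1.05 on the log2 scale (SE 0.17, adjusted p = 0.000141). *Mx1* was at 2.64, 2.98 and 1.63 CPM against 6.35, 6.16 and 6.31 CPM, a fall of 1.36 (SE 0.26, adjusted p = 0.000659) that did not pass relative to Scramble siRNA B (-0.46, adjusted p = 0.224). The transcription factor gene *Stat2* had overlapping groups, with a log2 fold change of -0.05. The 5 lower members became 3 without *Fmr1* siRNA A replicate 2 or Scramble siRNA A replicate 3. The interferon gene *Ifnb1* had 0 counts in all 6 libraries, and macrophage markers summed to 1.55 to 2.85 CPM with *Fmr1* siRNA A and 2.03 to 2.70 CPM with Scramble siRNA A. Relative to Scramble siRNA B, 23 members were higher and 1 was lower, with a median of 0.79. With *Fmr1* siRNA B, 4 members were higher and none passed as lower, the median was 0.29, and the change of 12 members (14) differed between the siRNAs. For *Cxcl10* the difference between the siRNAs was 3.67 on the log2 scale (adjusted p = 3.29e-06), and for *Rsad2* it was 3.0 (adjusted p = 1.09e-06).

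NF-kB targets rose without a member that fell. NF-kB factors are held in the cytoplasm by inhibitors that are themselves targets, and they induce cytokines and survival genes. Of 18 tested genes, 9 were higher (50%) and 0 lower, all 18 had a log2 fold change above 0, and the median was 0.48. *Nfkbia*, which encodes the inhibitor IkB-alpha, was at 149, 140 and 161 CPM against 60.4, 62.0 and 58.6 CPM. The log2 fold change was 1.32 (SE 0.095, adjusted p = 8.82e-09). *Csf1*, the macrophage growth factor, was at 46.6, 45.1 and 44.9 CPM against 17.0, 19.1 and 19.1 CPM and rose by 1.30 (SE 0.10). The A20 gene *Tnfaip3*, a brake on the pathway, rose by 0.91 (SE 0.13), and *Nfkb2*, which encodes a subunit, rose by 0.53 (SE 0.12). In the comparison of siRNA B, 10 members were higher and the median was 0.57, and 5 members (4) differed between the siRNAs. For *Nfkbia* the rise was 0.87 with siRNA B, and the difference of 0.45 passed the test (adjusted p = 0.02).

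**Figure D2:**
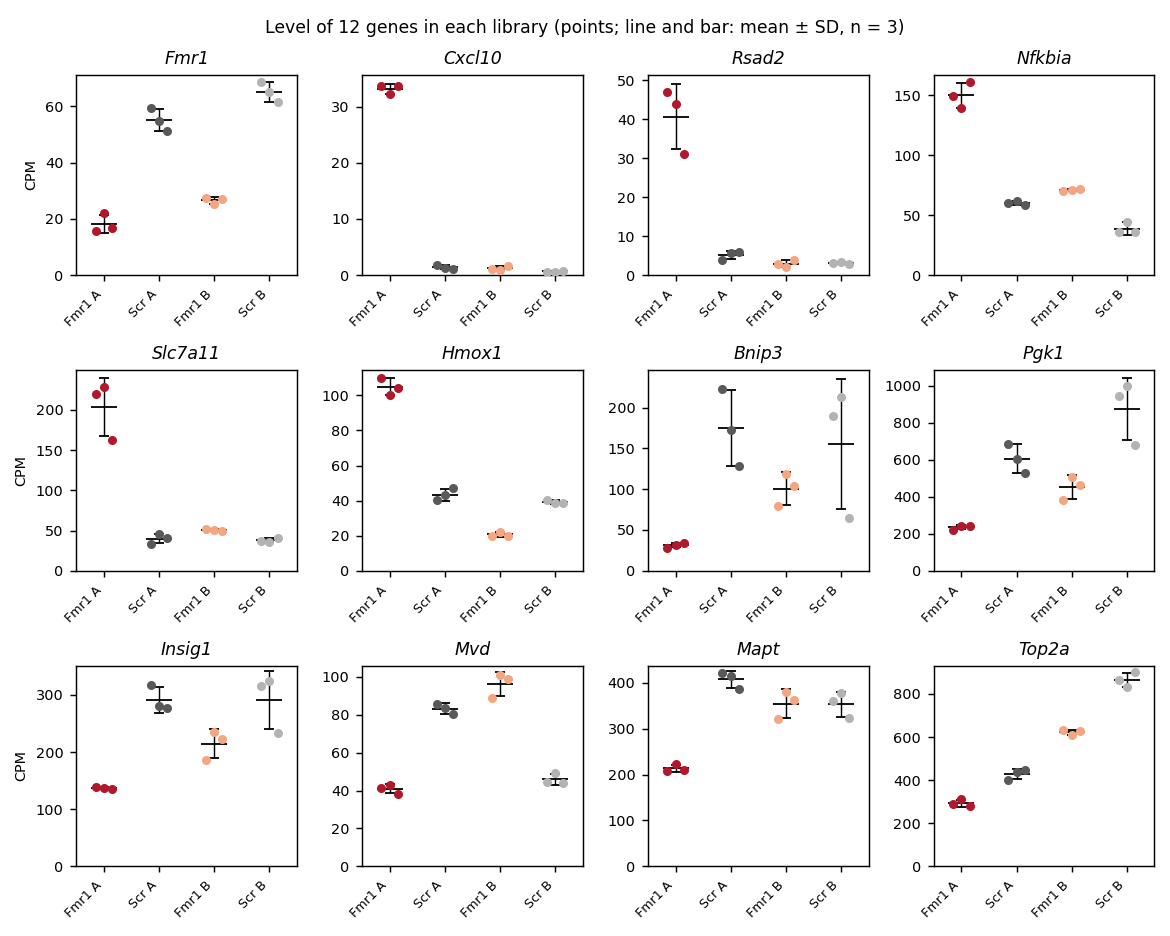
CPM of 12 genes (vertical axes, each from 0) is shown for the 3 libraries of each *Fmr1* and Scramble siRNA, with points for libraries and a line and bar for mean ± SD. *Cxcl10*, *Rsad2*, *Slc7a11* and *Hmox1* stand above all 9 other points in the *Fmr1* siRNA A libraries, and *Bnip3*, *Pgk1*, *Insig1*, *Mapt* and *Top2a* stand below all 9.

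Genes of cystine uptake, heme breakdown and iron storage rose strongly. NRF2 is the transcription factor that induces enzymes of glutathione synthesis and reduction, heme oxygenase and ferritin after oxidative stress. Of 24 tested members, 11 were higher (45.8%) and 3 lower (12.5%), with a median of 0.31. *Slc7a11*, the cystine-glutamate exchanger that feeds glutathione synthesis, was at 220, 228 and 163 CPM against 33.6, 45.6 and 40.7 CPM. It rose 5.08-fold (log2 2.35, SE 0.12, adjusted p = 1.23e-10), the largest rise among genes with a mean of 1000 or more counts. *Hmox1*, heme oxygenase, was at 110, 100 and 104 CPM against 40.2, 43.0 and 47.0 CPM and rose by 1.27 (SE 0.10, adjusted p = 2.88e-08). *Fth1*, the ferritin heavy chain, was at 253, 241 and 288 CPM against 93.7, 112 and 105 CPM and rose by 1.33 (SE 0.11). Ferritin has many processed pseudogenes, so its count is uncertain where reads could be split among them.

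Smaller rises were seen for *Gsr*, glutathione reductase (0.64, SE 0.087), *Srxn1*, sulfiredoxin (0.79, SE 0.12), and the low-count *Nqo1* (1.19, SE 0.27). The 3 lower members were *Tkt*, transketolase (-0.60, SE 0.073), *Me1*, malic enzyme (-0.58, SE 0.10), and *Gsta4*, a glutathione transferase with a mean of 14 counts (-1.47, SE 0.40). The *Gsta4* call did not pass without *Fmr1* siRNA A replicate 2 (adjusted p = 0.0558) or Scramble siRNA A replicate 3 (adjusted p = 0.0563). When Scramble siRNA B was the control, 14 members were higher and 2 lower. After *Fmr1* siRNA B, 5 were higher and 8 lower, and 15 of the 24 (14) differed between the siRNAs. Neither *Nqo1* (0.22, adjusted p = 0.557) nor *Gsta4* (-0.41, adjusted p = 0.528) passed relative to Scramble siRNA B. *Hmox1* showed opposite changes, +1.27 with siRNA A and -0.91 with siRNA B (difference 2.19, adjusted p = 5.59e-09).

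Nearly all genes of the glycolysis and hypoxia list fell. Hypoxia-inducible factor induces glucose transport, glycolytic enzymes and genes that restrain mitochondrial respiration when oxygen is short or the factor is stabilised. Of 29 tested members, 25 were lower (86.2%, against 12.7% of all genes) and 0 higher, all 29 had a log2 fold change under 0, and the median was -1.10. *Pdk1*, a kinase that inhibits pyruvate dehydrogenase, was at 2.03, 2.92 and 2.59 CPM with *Fmr1* siRNA A against 26.7, 24.1 and 16.5 CPM. It fell 8.88-fold (log2 -3.15, SE 0.33, adjusted p = 6.08e-07). *Bnip3*, a mitophagy receptor, was at 28.4, 32.1 and 34.1 CPM against 222, 173 and 129 CPM, a fall of 5.54-fold (log2 -2.47, SE 0.30, adjusted p = 3.34e-06). The control libraries themselves were spread widely for this gene, and the lowest of them was still well above the highest KD library.

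Abundant glycolytic enzymes fell too. *Pgk1*, phosphoglycerate kinase, was at 222, 239 and 242 CPM against 684, 602 and 527 CPM (log2 -1.37, SE 0.13, adjusted p = 2.58e-07). *Eno2*, neuronal enolase, was at 189, 190 and 194 CPM against 665, 552 and 511 CPM (log2 -1.59, SE 0.17). *Pfkl*, the liver-type phosphofructokinase, was at 172, 174 and 202 CPM against 575, 464 and 452 CPM (log2 -1.45, SE 0.14). In each of these the KD libraries lay close together and below every control library. The glucose transporter *Slc2a1* fell by 1.76 (SE 0.26) and *Gpi1*, glucose phosphate isomerase, by 1.02 (SE 0.11). Genes outside the list that are known to be induced in hypoxia were among the largest falls as well, namely *Fam162a* (-2.47), *Cox4i2* (-2.37) and *Ndufa4l2* (-2.29), the latter pair encoding mitochondrial respiratory chain subunits, and on the list *Adm*, which encodes the peptide adrenomedullin, fell by 3.01 on the log2 scale (SE 0.51). Against Scramble siRNA B the list gave 28 lower members and a median of -1.03.

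The level of this list also varied among control libraries. The mean log2 CPM over its members was 6.35, 6.36 and 6.41 in the *Fmr1* siRNA A libraries and 7.70, 7.52 and 7.32 in the Scramble siRNA A libraries, while the Scramble siRNA B libraries were at 7.61, 7.78 and 7.04. The *Fmr1* siRNA A values were the lowest of all 18 libraries. In the siRNA B comparison, 11 members were lower and 0 higher, the median was -0.46, and 16 members (14) differed between the siRNAs. *Pgk1* fell with siRNA B by 0.96 and did not differ past the threshold (difference -0.41, adjusted p = 0.13), whereas *Pdk1* had a log2 fold change of 0.45 with siRNA B and a difference of -3.60 (adjusted p = 4.13e-06).

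**Figure D3:**
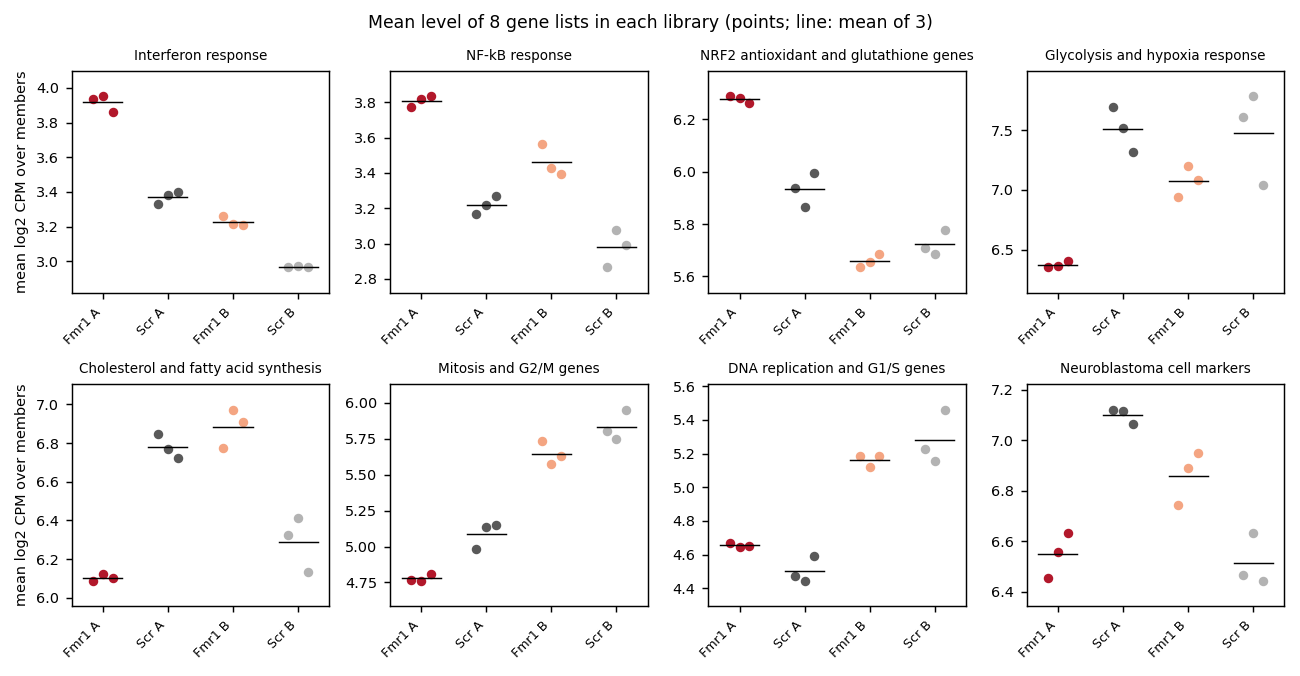
The mean log2 CPM over the members of 8 gene lists (vertical axes) is shown for each library of the *Fmr1* and Scramble siRNAs, with points for libraries and a line at the mean of 3. *Fmr1* siRNA A libraries are the highest of these 12 for the interferon, NF-kB and NRF2 lists and the lowest for glycolysis and hypoxia, sterol synthesis and mitosis, while for DNA replication and for neuroblastoma markers their place depends on which Scramble siRNA is taken.

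Genes of cholesterol and fatty acid synthesis fell with siRNA A and rose with siRNA B. They are induced together by SREBP factors when sterols are low, and the list includes enzymes and regulators. With *Fmr1* siRNA A, 22 of 32 members were lower (68.8%) and 0 higher, with a median of -0.70. *Insig1*, which retains SREBP in the endoplasmic reticulum, was at 139, 138 and 136 CPM against 317, 280 and 276 CPM (log2 -1.08, SE 0.11). *Mvd*, a mevalonate pathway enzyme, was at 41.4, 43.0 and 38.4 CPM against 85.9, 83.6 and 80.4 CPM (log2 -1.02, SE 0.10). The control and KD groups were tight and separate for these genes. *Acss2*, acetyl-CoA synthetase, fell by 1.05 (SE 0.10) and *Scd2*, the brain stearoyl-CoA desaturase, by 0.90 (SE 0.095).

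This list depended on the control. Against Scramble siRNA B, 9 members were lower and 2 higher, and the median was -0.19. Its mean log2 CPM was 6.85, 6.77 and 6.72 with Scramble siRNA A but 6.32, 6.42 and 6.13 with Scramble siRNA B, and 6.09, 6.12 and 6.10 with *Fmr1* siRNA A. For *Insig1*, *Scd2* and *Acss2* the fall passed against both controls, at -1.08, -1.02 and -0.31 against Scramble siRNA B, while *Mvd* (-0.17) did not pass there. With *Fmr1* siRNA B, 24 members were higher and 1 lower, with a median of 0.58, and 30 of 32 members differed between the siRNAs (30).

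**Figure D4:**
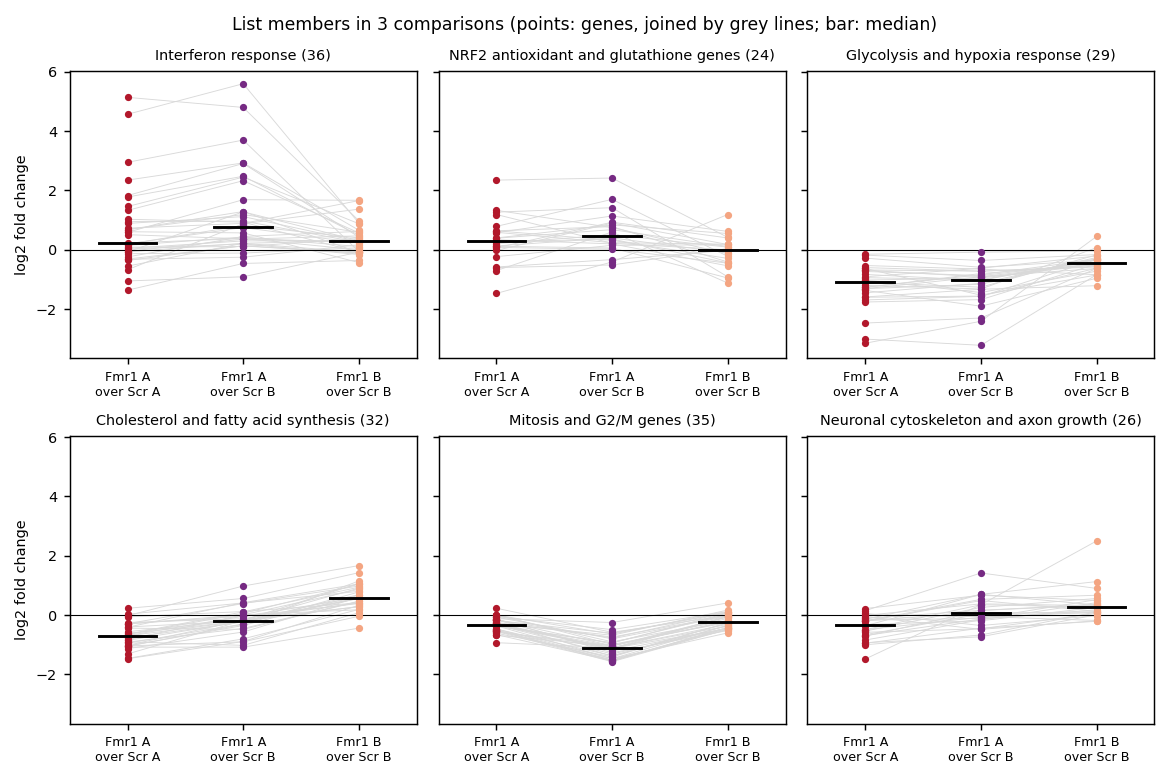
The log2 fold change (vertical axis) of each member of 6 lists is shown for *Fmr1* siRNA A over Scramble siRNA A, *Fmr1* siRNA A over Scramble siRNA B and *Fmr1* siRNA B over Scramble siRNA B, with points for genes, grey lines joining the same gene and a bar at the median. The medians of the glycolysis and hypoxia list are -1.10, -1.03 and -0.46, and those of the sterol list are -0.70, -0.19 and 0.58, where the first pair of comparisons shares the *Fmr1* siRNA A libraries and the last pair shares Scramble siRNA B.

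Chaperones of the endoplasmic reticulum were lower as a group. They fold secreted and membrane proteins and are induced by the unfolded protein response. Of 22 tested members, 11 were lower (50%) and 1 was higher, with a median of -0.33. *Calr*, calreticulin, was at 234, 225 and 234 CPM against 367, 391 and 368 CPM (log2 -0.70, SE 0.10, adjusted p = 2.89e-05). *Hsp90b1*, which encodes GRP94, fell by 0.69 (SE 0.098), *Pdia6*, a disulfide isomerase, by 0.64 (SE 0.086), *Edem1*, a degradation factor, by 0.90 (SE 0.13) and the transcription factor *Xbp1* by 0.52 (SE 0.095). The BiP gene *Hspa5* had a log2 fold change of -0.19 (adjusted p = 0.316) with groups that did not overlap. It was lower relative to Scramble siRNA B (-0.60, edgeR adjusted p = 0.00106). *Dnajb9*, a BiP co-chaperone, rose by 0.58 (adjusted p = 0.0105), a call that did not pass without *Fmr1* siRNA A replicate 2 (adjusted p = 0.0578) or Scramble siRNA A replicate 1 (adjusted p = 0.0501). Falls were also seen for this list against Scramble siRNA B (12 lower, 3 higher, median -0.34) and with *Fmr1* siRNA B (13 lower, 2 higher, median -0.37), with 8 members (8) that differed between the siRNAs.

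Targets of ATF4 and CHOP, the effectors of the integrated stress response, moved both ways. Of 35 tested members, 7 were higher (20.0%) and 6 lower (17.1%), with a median of 0.03. *Atf3* was at 77.8, 74.8 and 68.7 CPM against 35.6, 33.8 and 40.0 CPM and rose by 1.02 (SE 0.11, adjusted p = 5.90e-07). *Aldh1l2*, a mitochondrial folate enzyme, rose by 0.58 (SE 0.075) but was at 0.06 relative to Scramble siRNA B (adjusted p = 0.601), and *Slc7a11* is a member of this list too. *Gdf15*, a stress hormone, was at 33.7, 32.1 and 42.4 CPM against 98.2, 69.4 and 90.3 CPM and fell by 1.25 (SE 0.19, adjusted p = 6.27e-05). *Cebpg* fell by 0.80 (SE 0.075) and *Trib3* by 0.59 (SE 0.16), the latter not passing without Scramble siRNA A replicate 3 (adjusted p = 0.0635). The factors themselves did not pass against Scramble siRNA A, with -0.27 for *Atf4* (adjusted p = 0.271) and -0.23 for *Ddit3*, which encodes CHOP (adjusted p = 0.187). Relative to Scramble siRNA B, 6 members were higher and 11 lower, with a median of -0.03. *Ddit3* was lower there (-0.58, edgeR adjusted p = 0.000793), and *Atf4* did not pass (0.02, adjusted p = 0.959). After *Fmr1* siRNA B, 26 of these members were lower and 2 higher, the median was -0.55, and 21 members (18) differed between the siRNAs. *Ddit3* fell there by 1.80 (difference 1.57, adjusted p = 1.38e-06).

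Aminoacyl-tRNA synthetases, which charge tRNAs and are partly ATF4 targets, gave 8 higher (40.0%) and 0 lower of 20, with a median of 0.16. *Wars1* was at 168, 188 and 151 CPM against 87.6, 108 and 102 CPM (log2 0.77, SE 0.12, adjusted p = 8.43e-05), and *Rars1* rose by 0.61 (SE 0.10). The count of 8 became 4 without *Fmr1* siRNA A replicate 1, *Fmr1* siRNA A replicate 2 or Scramble siRNA A replicate 1, and 4 without a filter on low counts. Relative to Scramble siRNA B, 3 were higher and 1 lower, the median was 0.01 and *Wars1* was at -0.16. In the siRNA B comparison, 14 of the 20 were lower and 0 higher. Among 14 cytosolic heat shock genes, 2 were higher (14.3%) and 1 lower (7.14%). *Hsp90aa1*, the inducible HSP90, rose by 0.63 (SE 0.082), and *Hspa8*, the constitutive HSP70, fell by 0.52 (SE 0.087). Relative to Scramble siRNA B, 6 heat shock genes were higher and 0 lower, and *Hspa8* did not pass (-0.21, adjusted p = 0.0793).

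Lysosomal genes rose more often than they fell, with 10 higher (37.0%) and 3 lower (11.1%) of 27 and a median of 0.20. *Rragd*, a GTPase that signals nutrients to mTORC1 from the lysosome, was at 225, 228 and 220 CPM against 116, 111 and 117 CPM. The log2 fold change was 0.97 (SE 0.079, adjusted p = 3.43e-08). *Ctsb*, the protease cathepsin B, was at 583, 592 and 545 CPM against 341, 341 and 363 CPM (log2 0.72, SE 0.077), and *Gla*, alpha-galactosidase, rose by 0.82 (SE 0.13). The sterol exporter *Npc1* fell by 0.76 (SE 0.090), and the autophagy kinase *Ulk1* was at 30.2, 30.5 and 31.2 CPM against 91.1, 65.6 and 64.9 CPM, a fall of 1.27 (SE 0.16). When Scramble siRNA B was the control, 13 were higher and 3 lower. With *Fmr1* siRNA B, 0 were higher and 6 lower, and 15 members (13) differed between the siRNAs.

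Cell cycle genes depended strongly on the control. Mitotic genes, which peak in G2 and M phase, were lower in 17 of 35 members (48.6%) and higher in 1, with a median of -0.33. *Top2a*, topoisomerase II, was at 287, 312 and 278 CPM against 400, 437 and 447 CPM (log2 -0.55, SE 0.080, adjusted p = 3.29e-05). *Ube2c*, an enzyme of mitotic exit, fell by 0.93 (SE 0.15) and the centromere gene *Cenpf* by 0.57 (SE 0.097). *Ccnb1*, cyclin B1, was the single higher member (0.23, adjusted p = 0.0385), and this call passed without *Fmr1* siRNA A replicate 1 but not without any other library of the contrast (adjusted p between 0.053 and 0.145). Against Scramble siRNA B, 34 of 35 mitotic members were lower, with a median of -1.10, and *Ccnb1* was at -0.58.

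DNA replication genes went in opposite directions against the Scramble siRNAs. Of 41 tested members, 9 were higher (22%) and 3 lower (7.32%) against Scramble siRNA A, with a median of 0.16. Relative to Scramble siRNA B, 0 were higher and 34 lower, with a median of -0.76. *Mcm6*, a subunit of the replicative helicase, was at 76.5, 73.5 and 72.3 CPM against 41.3, 37.4 and 46.9 CPM (log2 0.82, SE 0.10, adjusted p = 4.51e-06) and was at 0.22 against Scramble siRNA B (adjusted p = 0.11). *Chaf1b*, a histone chaperone, was 1.13 higher (SE 0.13) and *Prim1*, primase, 0.87 higher (SE 0.14) on the log2 scale against Scramble siRNA A, but at -0.12 and -0.31 against Scramble siRNA B. The transcription factor *E2f1* fell by 0.66 (SE 0.16) against Scramble siRNA A. The mean log2 CPM of this list was 4.67, 4.64 and 4.65 with *Fmr1* siRNA A, 4.47, 4.45 and 4.59 with Scramble siRNA A, and 5.23, 5.16 and 5.46 with Scramble siRNA B, so the controls were farther from each other than the KD was from Scramble siRNA A. After *Fmr1* siRNA B, 13 mitotic members were lower and 1 higher, and 7 replication members were lower and 1 higher. Among 43 tested replication-dependent histone genes, 2 were higher (4.65%) and 1 lower (2.33%), both shares under those of all tested genes. *H1f4*, a linker histone, was the lower member (-0.89, SE 0.17). These counts were 4 and 3 with the replicate number as a block. Of 16 tested p53 targets, 1 was higher and 5 were lower, *Trp53inp1* by 0.52 (SE 0.11), and the 5 became 2 without *Fmr1* siRNA A replicate 1 or Scramble siRNA A replicate 1 and 3 without *Fmr1* siRNA A replicate 3 or Scramble siRNA A replicate 3. With Scramble siRNA B as the control, 4 p53 targets were higher and 4 lower, and 0 histone genes were higher and 8 lower.

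Neuronal and neuroblastoma genes were lower against Scramble siRNA A. Of 15 tested neuroblastoma markers, 9 were lower (60.0%) and 0 higher, with a median of -0.66. *Th*, tyrosine hydroxylase, the first enzyme of catecholamine synthesis, was at 3.59, 3.87 and 3.48 CPM against 11.7, 11.3 and 10.4 CPM. It fell 3.05-fold (log2 -1.61, SE 0.17, adjusted p = 6.16e-07). *Chgb*, chromogranin B, was at 120, 123 and 144 CPM against 297, 373 and 282 CPM (log2 -1.30, SE 0.13), and *Chga*, chromogranin A, fell by 0.87 (SE 0.10). *Isl1*, a transcription factor of sympathetic and sensory neurons, fell by 0.70 (SE 0.13). *Dbh*, dopamine beta-hydroxylase, was at 0.542, 1.76 and 1.26 CPM against 1.23, 1.39 and 1.06 CPM, with overlapping groups and a log2 fold change of -0.05. The defining markers were present in all 6 libraries except the neurofilament genes *Nefl* and *Nefm*, which had at most 2 and 4 counts in a library.

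Lists that share members with these markers were lower too. Of 26 genes of the neuronal cytoskeleton and axon growth, 11 were lower (42.3%) and 0 higher, with a median of -0.34. *Mapt*, tau, was at 207, 223 and 211 CPM against 422, 415 and 386 CPM (log2 -0.93, SE 0.082, adjusted p = 8.27e-08). *Marcks*, an actin-regulating kinase substrate, fell by 1.00 (SE 0.085), the beta-tubulin gene *Tubb2b* by 0.84 (SE 0.090) and *Stmn2*, stathmin 2, by 0.66 (SE 0.094). Of 24 synaptic vesicle and secretory granule genes, 11 were lower (45.8%) and 1 higher. *Caly*, which encodes a vesicle protein, was at 0.949, 0.678 and 1.26 CPM against 9.26, 8.21 and 8.79 CPM, a fall of 9.07-fold (log2 -3.18, SE 0.28) and the largest among genes with a mean of at least 50 counts. Of 15 catecholamine genes, 7 were lower and 0 higher, with *Slc18a2*, the vesicular monoamine transporter, at -0.78 (SE 0.10). Of 13 potassium channel genes, 7 were lower and 0 higher, with *Kcnh2* at 65.9, 72.9 and 78.0 CPM against 164, 156 and 165 CPM (log2 -1.16, SE 0.10).

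The medians of these lists did not fall against Scramble siRNA B, though some members did. The medians there were 0.06 for the cytoskeleton, 0.17 for granule and for catecholamine genes, 0.04 for potassium channels and 0.16 for the neuroblastoma markers, of which 3 were lower and 2 higher. Of the cytoskeleton genes 5 were lower and 5 higher, and of the granule genes 6 and 11. Of the catecholamine genes 5 were lower and 2 higher, and of the potassium channels 3 and 1. *Chga* was then 0.32 higher (adjusted p = 0.0222), and *Tubb2b* (-0.16), *Stmn2* (0.04), *Slc18a2* (0.12) and *Chgb* (0.29) did not pass, while *Mapt* (-0.73), *Th* (-0.71), *Isl1* (-0.61) and *Kcnh2* (-0.71) were lower against both controls. In the siRNA B comparison, 10 cytoskeleton, 7 granule, 7 catecholamine and 7 potassium channel genes were higher, and 0, 3, 0 and 0 were lower. Of these lists, 15, 11, 10 and 8 members differed between the siRNAs, as many as without *Fmr1* siRNA B replicate 1.

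Notch pathway and neural transcription factor genes gave 8 lower (47.1%) and 2 higher of 17, with a median of -0.52. *Jag2*, a Notch ligand, was at 34.8, 31.1 and 36.0 CPM against 88.8, 70.9 and 82.3 CPM (log2 -1.25, SE 0.12, adjusted p = 3.14e-07). *Tbr1*, a cortical neuron factor, was at 1.02, 0.814 and 0.889 CPM against 0.0882, 0.331 and 0.0709 CPM (log2 2.34, SE 0.63, adjusted p = 0.00992), with a mean of 8 counts, and did not pass without Scramble siRNA A replicate 3 (adjusted p = 0.0558). Among 27 tested mRNAs known as neuronal FMRP targets, 11 were lower (40.7%), 2 higher, and the median was -0.21. *Arc*, an activity-regulated synaptic gene, was at 12.7, 14.4 and 15.7 CPM against 33.4, 29.9 and 31.2 CPM (log2 -1.14, SE 0.14). When Scramble siRNA B was the control, 5 of the FMRP targets were lower and 4 higher, and *Arc* was at -1.22. With *Fmr1* siRNA B, 9 were higher and 4 lower.

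Signalling genes were mixed. Of 17 tested BMP, TGF-beta and Id genes, 4 were higher (23.5%) and 4 lower (23.5%). *Id3*, an inhibitor of bHLH factors, was at 13.1, 12.4 and 15.9 CPM against 5.91, 4.17 and 4.47 CPM (log2 1.52, SE 0.19, adjusted p = 5.20e-06) and rose with siRNA B too, by 2.03, a difference that did not pass (adjusted p = 0.20). *Id4* was at 7.73, 6.04 and 10.1 CPM against 29.3, 26.0 and 32.9 CPM (log2 -1.89, SE 0.20), but at 0.45 against Scramble siRNA B and 0.93 higher with siRNA B. *Smad9*, a BMP effector, fell by 0.90 (SE 0.096). Of 30 immediate early and ERK output genes, 3 were higher (10%) and 8 lower (26.7%). *Dusp6*, an ERK phosphatase, was at 140, 150 and 147 CPM against 256, 233 and 215 CPM and fell by 0.69 (SE 0.10), and *Junb* rose by 0.76 (SE 0.13), which did not pass relative to Scramble siRNA B (0.30, adjusted p = 0.0842). *Map3k8*, a kinase upstream of ERK, was at 1.29, 0.814 and 1.41 CPM against 0.0882, 0.464 and 0.426 CPM (log2 1.75, SE 0.47, adjusted p = 0.0104), with a mean of 11 counts, and did not pass without Scramble siRNA A replicate 1 (adjusted p = 0.052). Of 24 matrix and adhesion genes, 3 were higher (12.5%) and 5 lower (20.8%). *Fn1*, fibronectin, was at 0.90 (SE 0.16), *Fbn1*, fibrillin, at 0.75 (SE 0.13) and the protease inhibitor *Timp2* at -0.84 (SE 0.13). Relative to Scramble siRNA B, 8 matrix genes were higher and 2 lower, and neither *Fn1* (0.15, adjusted p = 0.532) nor *Timp2* (-0.24, adjusted p = 0.192) passed. Of 21 imprinted genes, 1 was higher (4.76%) and 5 lower (23.8%), with *Peg10* at -0.99 (SE 0.13). Relative to Scramble siRNA B, 6 imprinted genes were higher and 2 lower and *Peg10* was at 0.12 (adjusted p = 0.532), and with siRNA B 12 were higher and 0 lower, *Peg10* by 0.93.

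Few genes of the ribosome and the respiratory chain changed against Scramble siRNA A. Of 76 cytosolic ribosomal protein genes, 0 were higher and 5 lower (6.58%), with a median of 0.01, and *Rplp0* fell by 0.68 (SE 0.098). The fall of *Rplp0* did not pass relative to Scramble siRNA B (-0.06, adjusted p = 0.695), and with siRNA B it rose by 0.63 (adjusted p = 8.05e-05). Of 44 nuclear oxidative phosphorylation genes, 0 were higher and 2 lower (4.55%), with a median of -0.04, whereas 12 were higher and 2 lower relative to Scramble siRNA B (median 0.17). *Cox7c*, a subunit of cytochrome c oxidase, was one of the 2 lower genes, at 65.1, 63.8 and 65.2 CPM against 131, 117 and 144 CPM (log2 -1.01, SE 0.10). None of the 12 tested genes of mitochondrial DNA passed in edgeR or DESeq2, 1 had an unadjusted p under 0.05, and their median was 0.24. The 2 lower oxidative phosphorylation genes became 4 without *Fmr1* siRNA A replicate 3 and 6 without Scramble siRNA A replicate 2. Translation factors gave 6 higher (20%) and 6 lower (20%) of 30, against 4 and 7 relative to Scramble siRNA B and 1 and 8 with siRNA B. *Eif2s3x*, a subunit of eIF2, was at 156, 163 and 137 CPM against 55.9, 67.0 and 61.3 CPM (log2 1.31, SE 0.13, adjusted p = 2.39e-07) but at 0.25 against Scramble siRNA B (adjusted p = 0.14). *Eef2k*, the kinase that slows elongation, fell by 0.73 (SE 0.10) and *Eif4b* by 0.49 (SE 0.072).

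Factors of RNA decay and of RNA interference, the pathway that an siRNA enters, gave calls in both directions. Of 20 tested no-go decay and ribosome collision factors, 2 were higher (10%) and 1 lower (5%). These shares were near or under the 9.35% and 12.7% of all tested genes. *Trip4*, of the complex that splits collided ribosomes, rose by 0.45 (SE 0.084). *Zfp598*, the ubiquitin ligase that marks collided ribosomes, was at 113, 100 and 122 CPM against 120, 103 and 127 CPM, with overlapping groups (log2 -0.07, adjusted p = 0.742). Of 35 mRNA decay genes, 9 were higher (25.7%) and 4 lower (11.4%), with the decapping enzyme *Dcp2* at -0.62 (SE 0.094), and the 9 became 3 without *Fmr1* siRNA A replicate 1, 4 without *Fmr1* siRNA A replicate 2 or Scramble siRNA A replicate 1, and 5 without Scramble siRNA A replicate 3. More of them were lower than higher relative to Scramble siRNA B, with 3 higher and 7 lower, and with siRNA B, with 1 higher and 8 lower. Of 13 RNA interference genes, 3 were higher (23.1%) and 3 lower (23.1%), with *Dicer1* at -0.37 (SE 0.075). Relative to Scramble siRNA B, 3 of them were higher and 5 lower. Proteasome subunits gave 5 higher (16.1%) and 0 lower of 31, with *Psmd8* at 0.83 (SE 0.098). The 5 became 3 without *Fmr1* siRNA A replicate 3 or Scramble siRNA A replicate 1. For the proteasome, 13 were higher and 0 lower relative to Scramble siRNA B. Of 14 snoRNA host genes, 2 were higher (14.3%) and 3 lower (21.4%), with *Snhg5* at -0.58 (SE 0.13), and 1 and 4 relative to Scramble siRNA B.

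**Figure D5:**
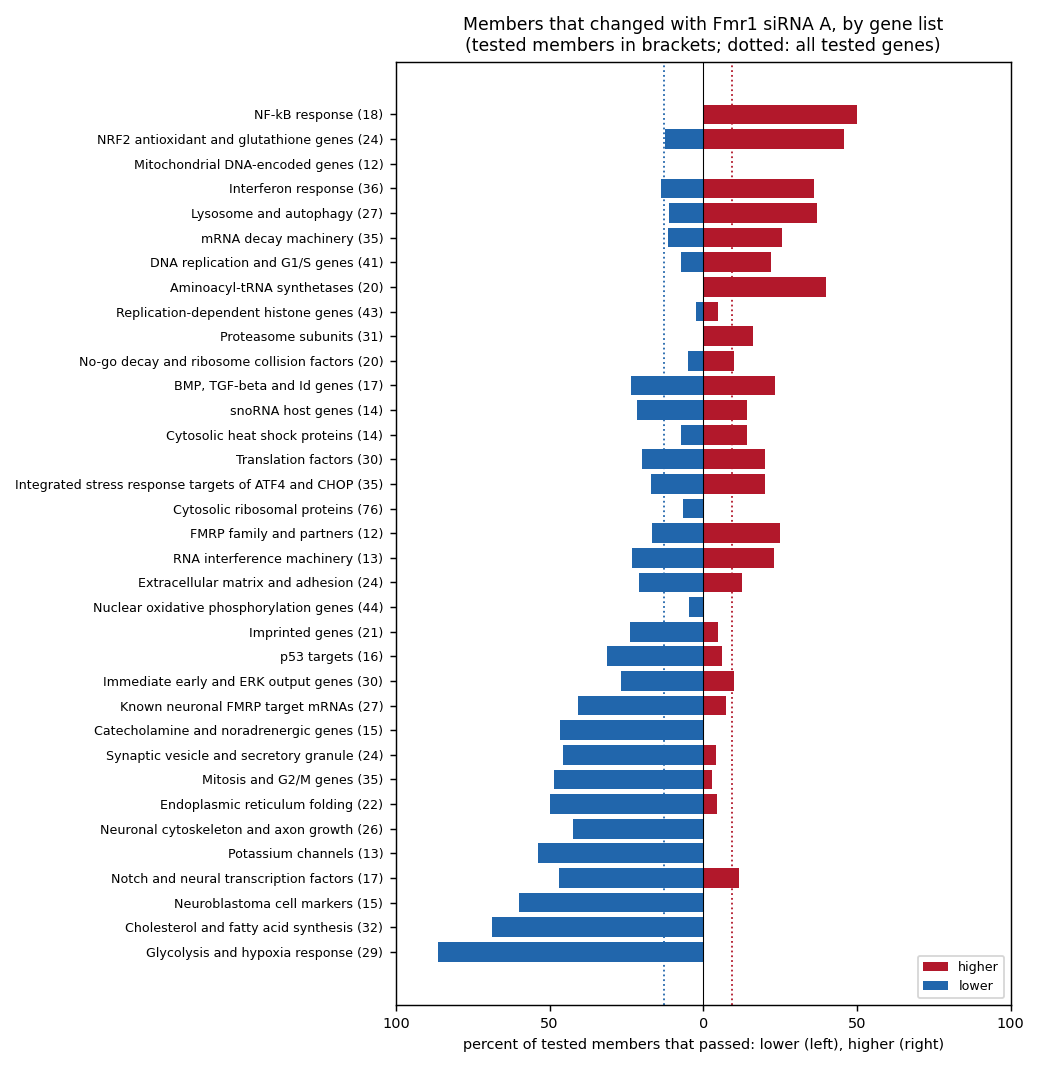
For each list with at least 10 tested members (vertical axis, members tested in brackets, ordered by median log2 fold change), bars give the percent of members that were higher (right, red) or lower (left, blue) with *Fmr1* siRNA A, and dotted lines mark the 9.35% and 12.7% over all tested genes. The glycolysis and hypoxia list reaches 86.2% lower and the sterol list 68.8% lower, and the NF-kB list reaches 50% higher with no lower member.

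Further genes with high counts were named for having the smallest p in this same comparison. *Rhoq*, a GTPase of vesicle traffic, was at 151, 153 and 149 CPM against 61.5, 63.9 and 58.2 CPM (log2 1.30, SE 0.10, adjusted p = 2.24e-08). *Lin28a*, which blocks let-7 maturation, was at 185, 174 and 188 CPM against 83.1, 72.3 and 83.5 CPM (log2 1.20, SE 0.10), and *Utp20*, a ribosome biogenesis factor, rose by 0.94 (SE 0.077). All 3 were separate from their controls by wide margins. *Lpgat1*, a lysophospholipid acyltransferase, was at 56.5, 62.6 and 56.1 CPM against 157, 145 and 151 CPM (log2 -1.37, SE 0.085, adjusted p = 2.43e-09). *Grsf1*, a mitochondrial RNA-binding protein, was at 48.7, 52.5 and 55.1 CPM against 130, 119 and 118 CPM (log2 -1.23, SE 0.082, adjusted p = 4.42e-09). *Spock2*, a matrix proteoglycan, was at 59.1, 55.4 and 55.2 CPM against 163, 135 and 163 CPM (log2 -1.44, SE 0.10). The remaining falls of this kind were *Vwa5b1* (-1.42), *Ppfibp2* (-1.21), the semaphorin receptor gene *Nrp2* (-1.06), the ubiquitin ligase gene *Mib1* (-0.89) and *Ahcyl2* (-0.89). Against Scramble siRNA B the falls of *Lpgat1*, *Grsf1*, *Spock2*, *Ppfibp2*, *Nrp2*, *Mib1* and *Ahcyl2* passed as well, while *Vwa5b1* was at -0.18 (adjusted p = 0.19). The rises of *Rhoq* (0.63), *Lin28a* (0.39) and *Utp20* (0.71) passed there too, each smaller than against Scramble siRNA A. In the siRNA B comparison *Rhoq* fell by 0.55, while *Vwa5b1* rose by 0.46 and *Spock2* by 0.44. *Lpgat1*, *Nrp2*, *Ppfibp2* and *Ahcyl2* also fell with siRNA B, and *Lin28a*, *Utp20*, *Grsf1* and *Mib1* did not pass.

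Other large changes were mostly in genes of lower counts. *Slit1*, an axon guidance ligand, was at 14, 11.3 and 14.3 CPM against 68.0, 56.4 and 55.7 CPM (log2 -2.18, SE 0.14, adjusted p = 3.37e-09). *Kbtbd11* was at 2.03, 2.65 and 2.22 CPM against 20.3, 19.5 and 14.3 CPM (log2 -2.96, SE 0.24). *Eln*, elastin, was at 7.59, 6.31 and 7.85 CPM against 46.9, 27.0 and 40.9 CPM (log2 -2.39, SE 0.24) but at 0.72 against Scramble siRNA B, and *Selenbp1* (-2.42) and *Vwa1* (-2.26) fell as well. *Adamts1*, a matrix protease, was at 18.6, 20.1 and 15.4 CPM against 4.14, 6.56 and 5.04 CPM (log2 1.77, SE 0.19), *Neurl3*, a ubiquitin ligase with a mean of 1164 counts, rose by 1.69 (SE 0.17), *Acp3* by 1.70 (SE 0.19) and *Tmem144* by 1.61 (SE 0.20). Both *Adamts1* and *Neurl3* rose with siRNA B too, by 1.5 and 1.58. Under a mean of 50 counts, *Acod1*, an itaconate-producing enzyme, was at 1.56, 1.09 and 1.18 CPM against 0.176, 0.199 and 0 CPM, and *Cldn4*, a claudin, at 0.949, 1.02 and 2.81 CPM against 0.0882, 0.132 and 0 CPM. *Hhatl* was at 0.0678, 0.136 and 0.518 CPM against 2.91, 1.46 and 2.91 CPM, *Nxph4* at 0.339, 0.136 and 0.444 CPM against 4.32, 3.11 and 1.56 CPM, and *Tpi-rs11*, a copy of a glycolytic gene whose reads may belong to its parent, at 0, 0.136 and 0.148 CPM against 1.5, 0.596 and 1.35 CPM. All of these passed the test on a handful of counts.

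Markers of other cell types were mostly too low to test, and the glial sum was lower with *Fmr1* siRNA A than with Scramble siRNA A. Of 11 embryonic stem cell markers, 3 were tested and 0 passed in edgeR or DESeq2, nor at an unadjusted p under 0.05, and *Pou5f1* had 0 counts in all 6 libraries. Of 10 fibroblast markers, 5 were tested, 2 were higher and 1 lower. Smooth muscle actin, *Acta2*, was at 7.25, 5.56 and 7.78 CPM against 0.970, 1.59 and 2.62 CPM (log2 1.96, SE 0.28), and the growth factor receptor gene *Pdgfrb* fell by 1.43 (SE 0.13), while *Lum* and *Postn* were at 0 counts in all 6 libraries. The summed level of the fibroblast markers was 32.4 to 37.4 CPM with *Fmr1* siRNA A and 41.6 to 43.9 CPM with Scramble siRNA A. In that sum *Pdgfrb* alone had a mean of 11.3 CPM against 30.3 CPM. The mean log2 CPM over the tested fibroblast markers went the other way, at 2.28 to 2.49 against 1.97 to 2.10. Their median log2 fold change was 0.82. Of 8 macrophage markers, 2 were tested and 0 passed in edgeR or DESeq2, nor at an unadjusted p under 0.05. Of 9 glial markers, 6 were tested, 0 were higher and 1 lower, *Mbp* at -0.78 (SE 0.12), with a summed 18.8 to 21.4 against 28.3 to 34.9 CPM, and all 6 had a log2 fold change below 0. Of 8 epithelial markers, 2 were tested and 1, *Cldn4*, was higher, with a summed 4.88 to 6.96 against 2.85 to 4.23 CPM. The part of these cells or genes in the results above was not tested.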

How the data were processed

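rRNA-depleted total RNA of N2A cells was sequenced, and the deposited values are raw counts per gene. The authors trimmed reads with Trim Galore, used STAR for alignment to GRCm39, and counted reads over exons with featureCounts. Strand setting, treatment of multi-mapping reads and annotation release are not given in the sources used here.

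All 18 libraries were fitted in a model with 6 groups (R 4.3.3, edgeR 4.0.16, quasi-likelihood test, TMM, filterByExpr with a minimum count of 10 and a minimum total of 15), leaving 19003 of 55414 features, of which 18139 were at 0 throughout. P-values were adjusted by Benjamini-Hochberg over all tested genes. CPM used TMM library sizes, and the exact permutation test for *Fmr1* used log2(CPM + 0.5). The fit was tested on simulated data for this comparison, where 140 of 200 changed genes were recovered with 6 false calls among 19003 genes. All other genes had the same mean in every simulated group, and far fewer genes changed than were called in the data. These counts therefore do not give the recovery or the false calls in the data. DESeq2 1.42.0, other size factors, filters, controls and left-out libraries were alternatives.

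Members and gene lists were chosen with earlier results of these data known. Named genes were the targets and a few set genes (*Id3*, *Dbh*, *Map3k8*, *Tbr1*), the 12 largest rises and falls from 50 counts, the 8 of smallest p in each direction from 1000 counts, the 3 largest below 50 counts, and up to 5 per direction in each list with its first 2 members. Not every gene that met the rule is named, and a few results are not reported here.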

Additional observations from a re-analysis of the deposited data

Results flagged for a closer look

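The change with *Fmr1* siRNA A against Scramble siRNA A differed from the change with *Fmr1* siRNA B against Scramble siRNA B for 101 of the 141 named genes, by the interaction term in edgeR at an adjusted p under 0.05, and all 101 also passed without *Fmr1* siRNA B replicate 1. Over all tested genes 20.5% passed. Named genes were chosen largely for their change with siRNA A, which is a part of this term, so their share cannot be compared with that background. Among genes called with siRNA A, the change differed for 847 of the 1777 higher and 1362 of the 2407 lower genes. Values are the siRNA A change minus the siRNA B change on the log2 scale. Each change is taken from its own Scramble siRNA, so a difference between the Scramble siRNAs enters these values. Against Scramble siRNA B for both, *Chga* was at 0.32 with *Fmr1* siRNA A and 0.33 with *Fmr1* siRNA B, while *Cxcl10* was at 5.60 and 0.90. The part of the controls in each value was not tested.

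Among interferon and NF-kB genes the difference was 3.67 for *Cxcl10*, 4.16 for *Ccl5*, 3.0 for *Rsad2*, 1.40 for *Isg15*, 1.70 for *Oasl1*, 1.28 for *Oasl2*, -0.98 for *Tap1*, -0.52 for *Stat2*, 0.45 for *Nfkbia*, 0.97 for *Csf1* and 1.04 for *Tnfaip3*. For antioxidant, glutathione and iron genes it was 1.93 for *Slc7a11*, 2.19 for *Hmox1*, 1.46 for *Fth1*, 0.92 for *Gsr*, 1.01 for *Srxn1*, 1.19 for *Nqo1*, -0.64 for *Tkt*, -2.66 for *Gsta4* and -0.56 for *Me1*. Glycolytic and hypoxia-induced genes gave -1.18 for *Pfkl*, -3.60 for *Pdk1*, -0.52 for *Gpi1*, -1.27 for *Slc2a1*, -1.84 for *Bnip3*, -2.17 for *Adm*, -2.25 for *Fam162a*, -2.31 for *Cox4i2* and -2.90 for *Ndufa4l2*. Sterol and fatty acid genes gave -1.83 for *Acss2*, -2.09 for *Mvd*, -0.65 for *Insig1* and -0.98 for *Scd2*. In protein folding and stress response genes the values were -0.98 for *Edem1*, 1.25 for *Dnajb9*, 1.16 for *Hspa5*, 2.25 for *Atf3*, 1.72 for *Aldh1l2*, 1.57 for *Ddit3*, 1.07 for *Trib3*, 1.71 for *Wars1*, 0.69 for *Rars1*, 0.41 for *Hsp90aa1* and -0.43 for *Hspa8*. Replication, lysosome, proteasome and ribosome-linked genes stood at 1.5 for *Chaf1b*, 1.14 for *Prim1*, 1.14 for *Rragd*, 0.91 for *Ctsb*, 0.95 for *Gla*, -0.98 for *Npc1*, -0.88 for *Ulk1*, 0.81 for *Psmd8*, 0.65 for *Trip4*, 1.31 for *Eif2s3x*, -0.72 for *Eef2k*, -1.31 for *Rplp0*, -0.87 for *Cox7c*, 0.70 for *Caprin1* and 0.34 for *G3bp1*. Neuronal and neuroblastoma genes stood at -1.11 for *Marcks*, -0.94 for *Mapt*, -1.26 for *Tubb2b*, -0.78 for *Stmn2*, -1.69 for *Chgb*, -1.20 for *Chga*, -1.87 for *Caly*, -1.94 for *Th*, -1.89 for *Slc18a2*, -1.20 for *Isl1*, -1.31 for *Jag2*, -1.24 for *Kcnh2*, -1.02 for *Arc* and -2.55 for *Dbh*. The signalling, matrix and other genes with large changes gave -2.81 for *Id4*, 0.98 for *Fn1*, -1.56 for *Fbn1*, -1.17 for *Timp2*, 1.04 for *Junb*, -2.84 for *Kbtbd11*, -2.65 for *Selenbp1*, -4.95 for *Eln*, -3.03 for *Vwa1*, -2.12 for *Slit1*, 1.73 for *Tmem144*, 1.22 for *Acp3*, 1.86 for *Rhoq* and 0.77 for *Utp20*. The last of them were at 1.32 for *Lin28a*, -1.02 for *Lpgat1*, -1.28 for *Grsf1*, -1.88 for *Vwa5b1*, -1.88 for *Spock2*, -0.56 for *Nrp2*, -0.77 for *Ppfibp2*, -0.86 for *Mib1*, -0.50 for *Ahcyl2*, -4.07 for *Hhatl*, -2.39 for *Nxph4*, -1.92 for *Peg10*, -0.84 for *Pdgfrb* and -0.96 for *Mbp*.

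For 13 lists, the mean log2 CPM of every *Fmr1* siRNA A library lay on one side of its Scramble libraries and that of every *Fmr1* siRNA B library on the opposite side of its own. The shift with siRNA A minus the shift with siRNA B was 0.59 for aminoacyl-tRNA synthetases, 0.41 for NRF2 genes, 0.23 for translation factors, -1.27 for cholesterol and fatty acid synthesis, 0.38 for lysosome and autophagy, -0.65 for the neuronal cytoskeleton, -0.86 for catecholamine genes, -0.66 for Notch and neural transcription factors, -0.46 for neuronal FMRP targets, -0.86 for potassium channels, -0.66 for imprinted genes, -0.90 for neuroblastoma markers and -0.69 for glial markers. The difference was not tested for any of these lists. Each shift is from its own Scramble siRNA, so the gap between the Scramble siRNAs enters it. For neuroblastoma markers the median library was at 7.115 and 6.468 with Scramble siRNAs A and B, and at 6.557 and 6.889 with *Fmr1* siRNAs A and B. For aminoacyl-tRNA synthetases these values were 7.605 and 7.70, and 7.816 and 7.352.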

How the results depend on the processing

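Against Scramble siRNA B, 2718 genes were higher, and 538 were more than 2-fold higher. A mean of at least 50 counts left 71 and 248 genes past 2-fold higher and lower, and a 1.5-fold threshold gave 671 and 1243. Leaving out 1 library gave between 1185 and 1690 higher and between 1776 and 2330 lower genes, 156 to 297 and 373 to 481 of them past 2-fold. The lowest of these counts came without *Fmr1* siRNA A replicate 1 and the highest without Scramble siRNA A replicate 2. Genes that differ between the siRNAs numbered between 3105 and 4089, and the *Fmr1* change lay between -1.76 and -1.50.

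Log2 fold changes that passed against at least 1 Scramble siRNA and changed sign against Scramble siRNA B were *Fxr1* 0.10, *Stat2* 0.36, *Wars1* -0.16, *Chaf1b* -0.12, *Prim1* -0.31, *Ccnb1* -0.58, *Stmn2* 0.04, *Chgb* 0.29, *Chga* 0.32, *Slc18a2* 0.12, *Id4* 0.45, *Eln* 0.72 and *Peg10* 0.12. Only *Stat2* (edgeR adjusted p = 0.0147), *Ccnb1* (6.79e-06) and *Chga* (0.0222) passed there, so the other calls were lost rather than shown to reverse. *Stat2* had not passed against Scramble siRNA A. Against all 6 Scramble libraries *Ccnb1* changed sign, at -0.18, and did not pass (edgeR adjusted p = 0.0533). The cause was not tested. Of 141 named genes, 16 others kept their sign but no longer passed against Scramble siRNA B, and 110 were on the same side of the threshold. *Hspa5* (-0.60, edgeR adjusted p = 0.00106) and *Ddit3* (-0.58, 0.000793) passed against Scramble siRNA B but not against Scramble siRNA A. They also passed against all 6 Scramble libraries, at -0.39 (0.0105) and -0.40 (0.00578). DESeq2 changed no call among the 139 it gave a value, and other size factors changed none among 141. *Atf4* passed without a filter on low counts (adjusted p = 0.0272) and *Ddit3* in the 6 libraries alone (adjusted p = 0.0472).

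With the replicate block, 1866 genes were higher, 2521 lower, 222 and 454 past 2-fold, and 4118 differed between the siRNAs, with no changed call among the 141 named genes. Deviations of same-numbered libraries correlated at 0.0138, 0.2548 and 0.0568, so the numbers were not taken to pair libraries. *Fmr1* siRNA A replicate 1 correlated best with Scramble siRNA A replicate 3 and replicate 3 with Scramble siRNA A replicate 1. Leaving out *Fmr1* siRNA B replicate 1 was chosen after seeing the data. Counts limit what could be seen in the 6820 genes under 50 counts, where mostly changes past 2-fold passed.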
